A study of Secale cereale x Triticum turgidum subsp. durum with 48 samples.

Results

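Coleoptile was compared with the young leaf that follows it in triticale, a hybrid cereal of wheat and rye parentage. The comparison took the 3 arrays titled Coleoptile and the 3 titled Seedling, which are 6 of the 48 Affymetrix Wheat GeneChip arrays of a survey of organs in 16 groups. The coleoptiles had emerged 7 days after sowing, at Zadoks stage 7 on a numbered scale of cereal growth, and came from the cultivar AC Alta. The seedling leaves were taken at Zadoks stage 13 and came from the cultivar AC Certa. Coleoptile RNA was isolated with guanidine isothiocyanate and cesium chloride ultracentrifugation, and leaf RNA with the QIAGEN RNeasy Plant Mini kit and a DNase step on its column. Organ, stage, cultivar and extraction therefore change together between the sides, and their parts in any difference cannot be told apart. Within the survey, only root shares the coleoptile's cultivar, age and extraction. AC Alta thus supplied 6 arrays and AC Certa 42.

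The coleoptile is a sheath that encloses the first leaf of a grass seedling and carries it through the soil. It grows mostly by cell elongation, is short lived, and splits when the leaf pushes through. A young leaf blade is built for photosynthesis, with chloroplasts that run electron transport and the Calvin cycle and peroxisomes that handle the products of photorespiration. The labels do not say whether the enclosed leaf was removed from the coleoptiles. In organs made of several cell types, fewer cells of a type and less RNA per cell cannot be told apart.

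Values are RMA signals on the log2 scale, so that a difference of 1 is a 2-fold difference. The array holds wheat sequences, and a single probe set can also read its rye counterpart or related genes. Signals under 5.99, the level that 95% of the values of reporter probe sets for foreign genes stayed below, were treated as background. On the coleoptile arrays 35.1% to 35.2% of the tested probe sets lay above that level, and on the seedling leaf arrays 33.5% to 33.7%. The 3 coleoptile arrays resembled each other more closely, with Pearson correlations over probe sets of 0.991 to 0.994, than the 3 leaf arrays did, with 0.959 to 0.972. Seedling leaf replicate 1 stood farthest from coleoptile, at a mean correlation of 0.872, against 0.912 for replicate 2 and 0.920 for replicate 3. The median SD of a probe set was 0.140 among coleoptiles and 0.248 among seedling leaves (n = 3 each). An SD of 1 or more was found for 83 probe sets in coleoptile and for 1465 in seedling leaf.

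The RNA spikes added for labelling differed between the sides. The lys spike averaged 4.72 ± 0.118 in coleoptile and 7.21 ± 0.0168 in seedling leaf (SD, n = 3 each). The dap, phe and thr spikes differed by -2.41, -2.26 and -2.84 on the log2 scale, coleoptile being the lower, and for each of the 4 spikes an exact two-sided permutation test gave p = 0.1, the smallest that 3 against 3 arrays allow. Root, the other AC Alta organ, read 4.33 for lys, while the other 42 arrays lay between 5.57 and 8.55. The spikes thus separated the 6 AC Alta arrays from all AC Certa arrays, and their part in the differences below was not tested. The plot of labelling spikes shows coleoptile and root beside only seedling leaf and tillering leaf, a later leaf of AC Certa. The spikes added at hybridization differed less, with means of 10.97 in coleoptile and 11.42 in seedling leaf.

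**Figure D1:**
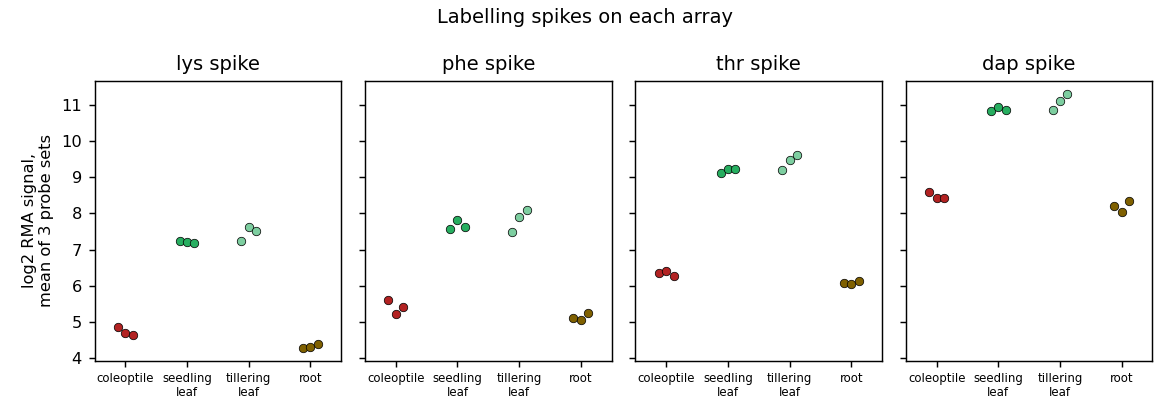
Signals of the 4 labelling spikes (log2) on each array of coleoptile, seedling leaf, tillering leaf and root. For lys, coleoptile arrays average 4.72 and root arrays 4.33, below the 5.57 to 8.55 of the other 42 arrays, most of which are not drawn.

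Coleoptile differed from seedling leaf at 9507 of the 61115 tested probe sets (15.6%), by limma with a Benjamini-Hochberg adjusted p under 0.05 and a difference of at least 2-fold. Of these, 6217 were higher in coleoptile (10.2% of those tested) and 3290 were lower (5.38%). Calls by adjusted p alone came to 22505 (36.8%), almost evenly divided between 11257 higher and 11248 lower (18.4% each). The excess of higher calls therefore came with the 2-fold minimum. It depended on scaling. Higher calls made up 65.4% of the calls as deposited, 56.6% after quantile normalization and 85.9%, or 10631 against 1745, after centring each array on the hybridization spikes. That last step moved the median difference of all probe sets to 0.349, against -0.107 as deposited.

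The median called difference was 1.58 among the probe sets higher in coleoptile and -1.55 among the lower ones. A difference of at least 2 on the log2 scale was reached by 1846 higher (29.7%) and 998 lower probe sets (30.3%). At 5 or more, 152 higher and 49 lower probe sets were left, and at 7 or more, 22 and 5. Every coleoptile array lay above every leaf array for 6075 of the higher probe sets, and below every leaf array for 3212 of the lower ones. The same separation was found for 44.9% of all tested probe sets, so little can be read from it alone.

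Part of the higher calls were differences between a signal and background. For 1545 of the higher probe sets (24.9%) all coleoptile arrays and no leaf array lay above the background level. The reverse held for 620 of the lower ones (18.8%). Both organs lay above background on all arrays for 2544 of the higher (40.9%) and 1667 of the lower probe sets (50.7%). For 680 of the higher (10.9%) and 564 of the lower probe sets (17.1%), the means of both organs were below that level, and these differences are between dim signals.

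**Figure D2:**
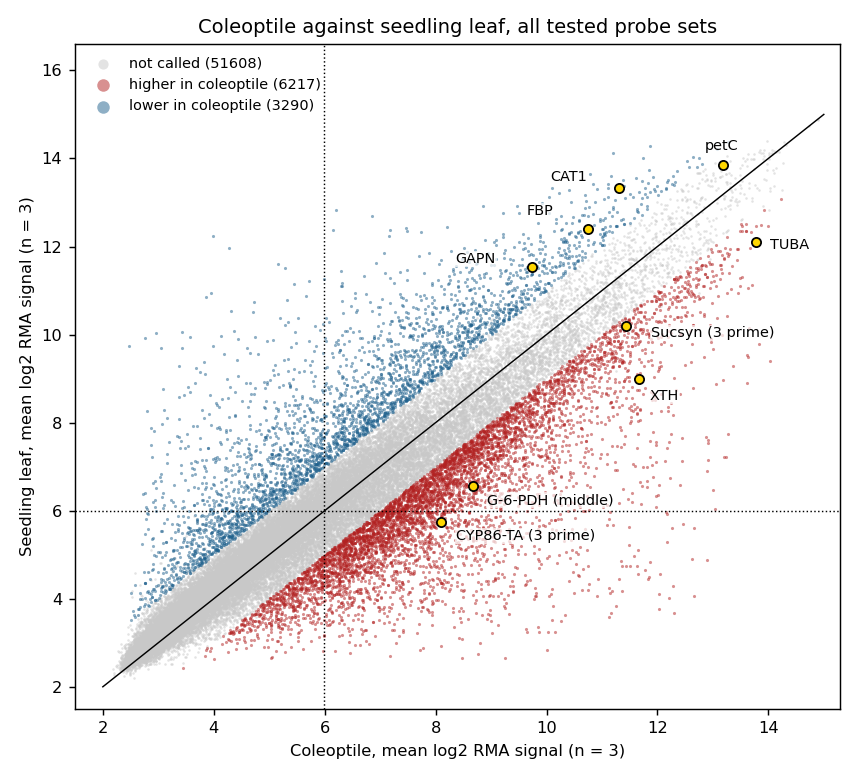
Mean signal (log2) of each tested probe set in coleoptile and in seedling leaf, with the probe sets called higher in coleoptile (6217), called lower (3290) and not called in separate colours. Calls in both directions reach from background to the top of the scale.

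Few of these probe sets could be given a gene. The platform annotation used here pairs 1273 probe sets with 771 genes, and 1254 of those carry only a LOC number. That left 19 probe sets of 13 named genes, together with 25 control probe sets that the array carries for 8 further wheat genes. Of these 44 probe sets, 10 were higher in coleoptile and 4 were lower, against 10.2% and 5.38% of all tested probe sets. Of the 10 higher ones, 6 read only 2 genes of sugar metabolism, so these counts do not stand for separate genes. The genes are described below by their roles. Markers of green leaf, seed storage, root and pollen were sought by name and none was matched, so the organ labels could be checked only through the named genes that follow.

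Photosynthesis was represented by petC, which encodes the Rieske iron-sulphur protein of the cytochrome b6f complex in the chloroplast. Its signal was 13.17, 13.21 and 13.18 in coleoptile and 13.94, 13.85 and 13.79 in seedling leaf. Every coleoptile array was lower, but the difference was -0.67 on the log2 scale (SE 0.193, limma adjusted p = 0.00534), under the 2-fold minimum. The difference was -0.22 after centring on the hybridization spikes. Root averaged 5.27, below background, so that coleoptile and leaf both carried a petC signal that root lacked. A second petC probe set was at background in both organs, at 3.37 in coleoptile and 3.46 in seedling leaf.

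3 genes of carbon metabolism and peroxide removal were lower in coleoptile yet well above background there. FBP encodes fructose bisphosphatase, an enzyme that the Calvin cycle and sucrose synthesis both use. It read 10.80, 10.77 and 10.70 in coleoptile and 12.50, 12.49 and 12.18 in seedling leaf, a difference of -1.63 (SE 0.218, limma adjusted p = 1.04e-07). The coleoptile signal was 3.1-fold lower, and the organs did not overlap. A second, dim FBP probe set, with a coleoptile mean below background, fell short of the 2-fold minimum.

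GAPN encodes a glyceraldehyde-3-phosphate dehydrogenase that makes NADPH without phosphorylating its product. Its signal was 9.35, 9.67 and 10.17 in coleoptile and 11.45, 11.61 and 11.56 in seedling leaf, a difference of -1.81 (SE 0.246, limma adjusted p = 1.46e-07). CAT1 encodes catalase, which breaks down hydrogen peroxide. It read 10.93, 11.36 and 11.62 in coleoptile and 13.51, 13.17 and 13.28 in seedling leaf, a difference of -2.02 (SE 0.211, limma adjusted p = 4.73e-10). All 3 coleoptiles lay below all 3 leaves for both genes. The second CAT1 probe set was below background in both organs, at 4.89 in coleoptile and 5.52 in seedling leaf. In root the brighter FBP and CAT1 probe sets and the GAPN probe set averaged 4.87, 4.55 and 4.51, all below background. Coleoptile was thus between root and leaf for these 3 genes, and nearer to leaf.

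XTH, in contrast, was brighter in coleoptile. It encodes a xyloglucan endotransglucosylase/hydrolase, an enzyme that cuts and rejoins the xyloglucan chains of growing cell walls. Its signal was 11.61, 11.87 and 11.52 in coleoptile and 7.97, 9.44 and 9.59 in seedling leaf. All coleoptiles exceeded all leaves, by 2.67 on average (SE 0.486, limma adjusted p = 2.64e-05) or 6.35-fold. Leaf replicate 1 was the dimmest, and without it the difference was 2.15. XTH was also higher in coleoptile than in root, where it averaged 9.95, by 1.72 (adjusted p = 0.00604). Only the epiderm group, with a mean of 11.78 over 2 arrays, read higher than coleoptile among the 16 groups.

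Among 6 cytoskeleton probe sets, for TUBA and actin, 1 was higher in coleoptile and none was lower, with a median difference of 0.05. That 1 call is close to the 10.2% of all tested probe sets called higher. The called probe set reads TUBA, alpha-tubulin, a building block of microtubules. It gave 13.74, 13.77 and 13.82 in coleoptile and 11.46, 12.30 and 12.53 in seedling leaf, a difference of 1.68 (SE 0.146, limma adjusted p = 4.9e-12) without overlap. Root was brighter than coleoptile, at 14.19. A second TUBA probe set was below background in both organs, at 4.47 in coleoptile and 4.99 in seedling leaf. The 4 actin probe sets, most of them near or below background, differed by between -0.24 and 0.17, and none was called.

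Sugar metabolism was represented by 2 enzymes with 3 probe sets each, along the 5′, middle and 3′ parts of the transcript. All 6 were higher in coleoptile, with a median difference of 1.79, against 10.2% of all tested probe sets and a median of -0.107. Probe sets of one gene are not independent, so the count stands for 2 genes. Sucsyn, sucrose synthase, splits sucrose into UDP-glucose and fructose. Its 3′ probe set gave 11.37, 11.47 and 11.46 in coleoptile and 9.96, 10.60 and 10.03 in seedling leaf, a difference of 1.24 (SE 0.223, limma adjusted p = 2.16e-05). The middle probe set differed by 1.66 (SE 0.325, adjusted p = 7.3e-05). The 5′ probe set differed by 1.67, but every leaf array was below background there, so coleoptile was at least 1.97-fold higher. All coleoptiles lay above all leaves for the 3 probe sets.

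G-6-PDH, glucose-6-phosphate dehydrogenase, opens the pentose phosphate pathway and yields NADPH. Its 3′ probe set gave 9.31, 9.53 and 9.62 in coleoptile and 6.74, 8.20 and 7.79 in seedling leaf, a difference of 1.91 (SE 0.199, limma adjusted p = 4.39e-10). The middle and 5′ probe sets differed by 2.11 and 1.90, and on all 3 probe sets leaf replicate 1 was the dimmest. The organs did not overlap on any of them. Root was brighter than coleoptile on each, so that coleoptile minus root came to -1.16, -1.54 and -1.30 at the 3′, 5′ and middle probe sets. For both sugar enzymes the order of the means was root, coleoptile, leaf. For the 5′ probe set of Sucsyn, coleoptile minus root was -0.81 and was not called (limma adjusted p = 0.0796). The fit shares 1 error over all 16 groups. The arrays of these organs did not overlap there, at 6.82 to 7.14 in coleoptile and 7.55 to 7.90 in root.

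The 3 probe sets of CYP86-TA, a cytochrome P450 of a family that hydroxylates fatty acids for cutin and suberin, disagreed. The 3′ probe set gave 8.00, 8.03 and 8.27 in coleoptile and 5.56, 5.21 and 6.45 in seedling leaf, a fitted difference of 2.36 (SE 0.35, limma adjusted p = 7.68e-07). The leaf mean was below background, so coleoptile was at least 4.3-fold higher. The 5′ and middle probe sets differed by 0.51 and 0.29 and were not called. The 3′ signal minus the 5′ signal averaged -0.02 in coleoptile and -1.87 in seedling leaf (exact two-sided permutation p = 0.1), where the leaf value rests on that dim 3′ signal. Coleoptile minus seedling leaf, this quantity was 1.85 for CYP86-TA and lay between -0.43 (Sucsyn) and 0.13 (gapdh) for the other 6 control genes with both ends.

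Of the other control genes, the middle probe set of ef1a, an elongation factor of translation, was called higher at 1.0 (limma adjusted p = 0.000926), with all 6 arrays below background. The 18SrRNA probe set gave 7.03, 5.27 and 5.77 in coleoptile and 8.70, 7.86 and 6.44 in seedling leaf. The organs overlapped, and its call at -1.64 (limma adjusted p = 0.0288) was lost under several alternatives, over which the adjusted p ran between 0.00521 and 0.213. The 5 probe sets of gapdh, a glycolytic enzyme, and the 3 of Ubiquitin, which tags proteins for degradation, were not called, and the gapdh means were below background in coleoptile. Neither were those of SAHH, of the TATA-binding protein TBP1, of the dehydrin COR410, of PFK or of the thionins THI1.1, THI1.2 and TTHV, small antimicrobial proteins. The 4 thionin probe sets, the only matched members of the defence list, were below background in both organs, as were COR410 and PFK, so they give no comparison. 6 of the 13 gene lists that were sought, among them secondary wall, cell division and hormone genes, had no named member.

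**Figure D3:**
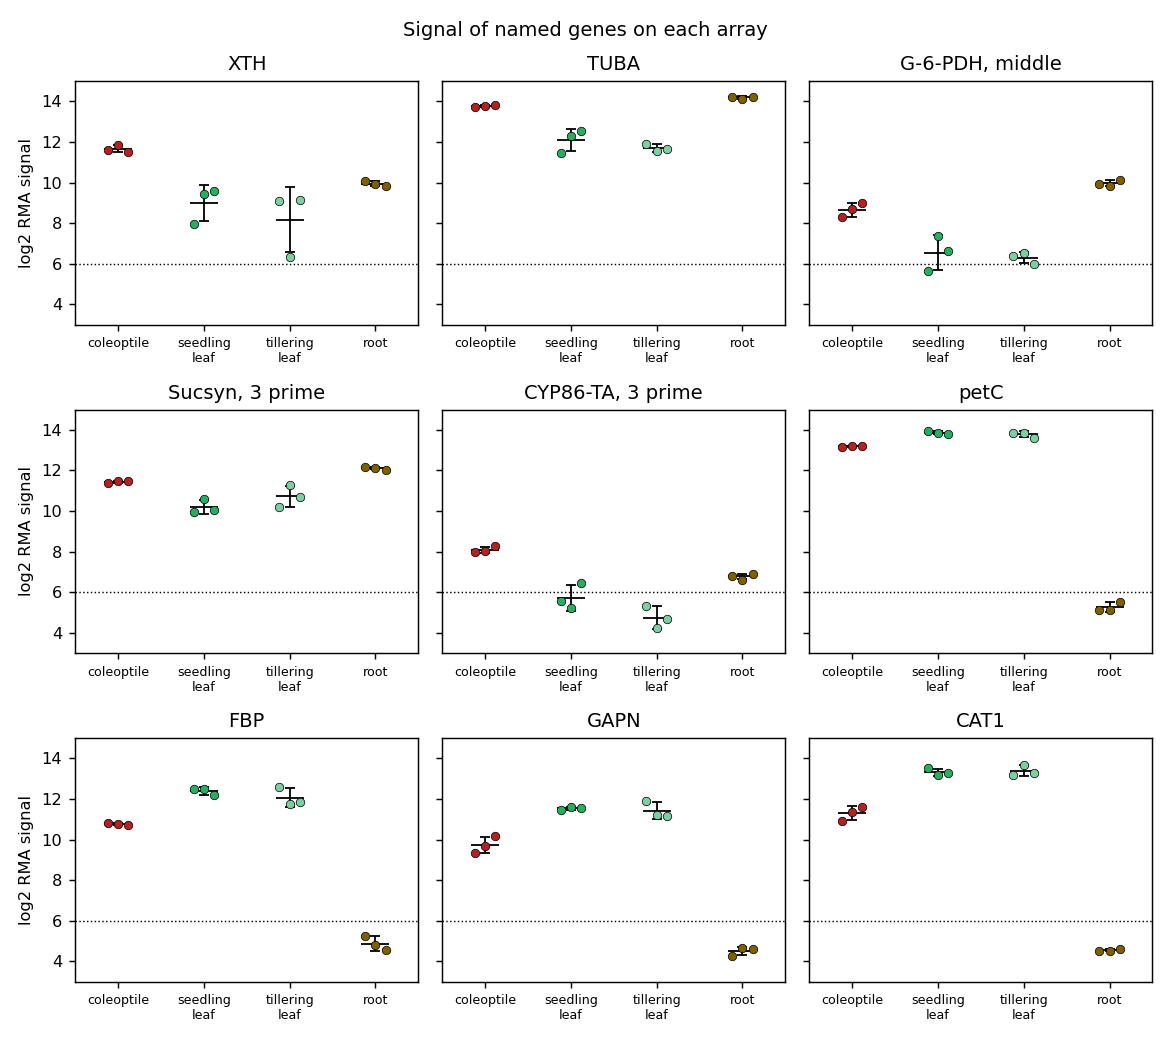
Signal (log2) of named probe sets on each coleoptile array and each seedling leaf array. XTH, TUBA, G-6-PDH and Sucsyn are higher on all 3 coleoptile arrays, whereas CAT1, GAPN and FBP are lower on all 3, and petC differs by -0.67.

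The largest differences in each direction were those of probe sets without a gene name, and they are given by their array IDs. Among the 10 that were highest in coleoptile relative to leaf, all leaf means were below background and the coleoptile signal was at least 35-fold to 119-fold higher. These probe sets fell into 2 kinds by their signal in root. For 7 of them root was also bright, within 2 log2 units of coleoptile. Ta.5399.2.S1_at, for example, gave 12.36, 12.22 and 12.26 in coleoptile and 4.52, 4.55 and 3.81 in seedling leaf, a fitted difference of 7.99 (SE 0.225, limma adjusted p = 2.47e-26), and coleoptile was at least 78.0-fold higher. Its root mean was 13.55, and coleoptile minus root was -1.27. Ta.13207.1.S1_x_at had the largest fitted difference, 8.62 (SE 1.54, limma adjusted p = 2.01e-05), with coleoptile at 12.38, 12.28 and 12.25 and seedling leaf at 4.17, 3.28 and 3.61. Against the background level it was at least 79.3-fold higher, a smaller bound than for Ta.23807.2.S1_s_at (119-fold), Ta.23807.3.S1_a_at (102-fold) and Ta.1362.1.S1_at (98.5-fold). Its SE reflects spread in other groups, because the fit shares 1 error over all 16, while the 3 coleoptiles lay within 0.13 of each other.

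The other 3 probe sets of these 10 had root means below background as well. Ta.1362.1.S1_at gave 12.84, 12.67 and 12.34 in coleoptile and 4.47, 4.88 and 5.35 in seedling leaf, a fitted difference of 7.72 (SE 0.342, limma adjusted p = 3.03e-20). Root averaged 5.88, with replicate 1 above background at 6.87, and coleoptile was the highest of the 16 groups. Ta.23807.3.S1_a_at gave 12.57, 12.68 and 12.73 in coleoptile and 4.04, 3.68 and 4.45 in seedling leaf, and Ta.23807.2.S1_s_at behaved alike, at fitted differences of 8.60 and 8.01. Both were brighter still in the AC Certa stem at stage 59, at 13.65 and 13.94, so their signal was not limited to AC Alta. These 2 probe sets share the first number of their ID, as do Ta.7378.7.S1_at and Ta.7378.5.A1_at among those bright in root. The 10 thus do not stand for separate genes, and nothing is read from the counts of the 2 kinds.

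Among the 10 with the lowest coleoptile signal relative to leaf, 9 had coleoptile means below background, and root was below background for all 10. Of all tested probe sets, only 35.1% to 35.2% lay above background on a coleoptile array. The 10 include Ta.5633.1.S1_a_at and Ta.5633.1.S1_x_at, and Ta.1120.1.S1_at and Ta.1120.1.S1_x_at. They thus do not stand for separate genes, and nothing is read from these counts. Ta.5633.1.S1_a_at gave 3.79, 3.76 and 4.42 in coleoptile and 12.69, 11.49 and 12.56 in seedling leaf, a fitted difference of -8.26 (SE 0.473, limma adjusted p = 5.15e-17), and coleoptile was at least 76.2-fold lower. Ta.611.1.A1_at gave 2.78, 2.82 and 2.70 in coleoptile and 10.28, 9.52 and 9.98 in seedling leaf. Ta.12118.1.S1_a_at was the exception, with 6.86, 5.62 and 6.11 in coleoptile and 13.10, 12.51 and 12.86 in seedling leaf. All 3 leaf arrays were above background for all 10. The signals were not particular to the seedling stage, since the tillering leaf was above background for all 10, and the highest group was the tillering leaf for 2, a flag leaf for 7 and the stem at stage 21 for 1. The leaf arrays were uneven for Ta.14946.1.S1_at, which read 9.44, 12.11 and 7.51 there and 3.32, 2.95 and 2.89 in coleoptile.

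**Figure D4:**
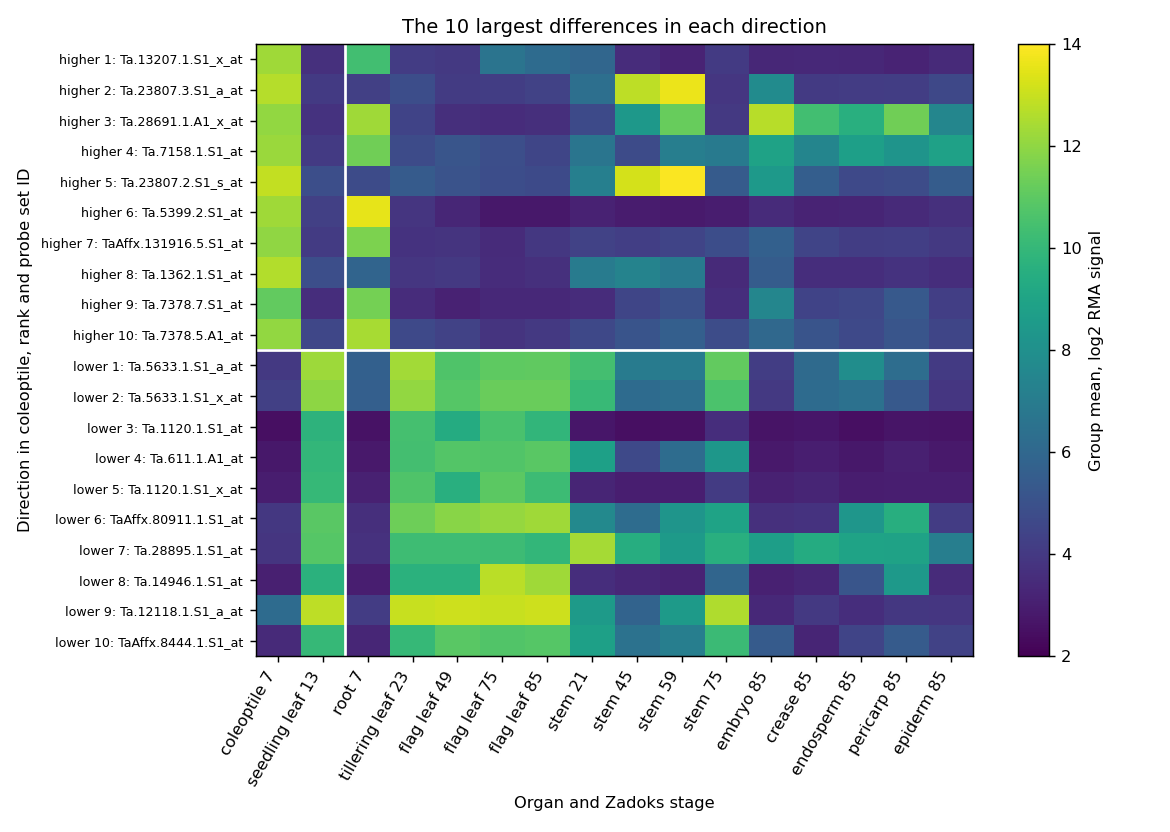
Mean signal (log2) of the 20 probe sets with the largest differences, across the organ groups. Of the 10 higher in coleoptile, 7 are also bright in root, and the 10 lower in coleoptile are below background in root. Some probe sets share the first number of their ID, so these counts do not stand for separate genes.

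Probe sets that share the first number of their ID were grouped as a cluster, and how related their sequences are was not checked. Where several of them were called, the calls mostly shared a direction. Of 1520 such clusters with 2 or more called probe sets, 1483 were called in 1 direction and 37 in both, with uncalled members not counted. In cluster Ta.7378, 31 of 38 probe sets were higher in coleoptile and none was lower. Its called members had a median signal of 11.22 in coleoptile, 7.37 in seedling leaf, 11.76 in root and 11.89 in embryo. The seedling leaf arrays were uneven there, with medians of 6.55, 9.11 and 7.65 for replicates 1, 2 and 3. Cluster Ta.27657 had 13 of 14 higher, with medians of 11.16 in coleoptile and 5.17 in seedling leaf. Its leaf medians by array were 4.84, 6.72 and 5.5, with replicate 2 again the brightest. In cluster Ta.10329, 26 of 39 probe sets were higher and 1 was lower. Going the other way, all 6 probe sets of Ta.5633 were lower in coleoptile, with medians of 4.78 in coleoptile and 10.25 in seedling leaf. Calls were mixed in TaAffx.128418, with 9 higher and 13 lower of 113 probe sets. They were mixed also in TaAffx.143995, with 7 higher and 2 lower of 52. Members of a cluster can share target sequence, so these counts do not stand for separate genes. Of all tested probe sets 10.2% were higher and 5.38% lower, but these clusters were chosen after their values were seen, so nothing is read from that contrast.

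Of the 1273 annotated probe sets, 283 were higher in coleoptile and 103 were lower, 30.3% in all against 15.6% of those tested. The 285 genes with a called probe set include 71 with several, and for 70 of these all calls had 1 direction. The examples that follow were chosen from the larger differences after their values were seen, and the annotation gives them no function. They are not the largest in order. LOC732714, at 6.62 with 6 of 6 probe sets called, and LOC100049018, at -4.6 with 4 of 28 called, are not among them. Each value is that of the gene's probe set with the largest difference. LOC732713 (1 of 2 probe sets called) averaged 10.49 in coleoptile and 4.13 in seedling leaf, and LOC543476 averaged 9.64 in coleoptile and 3.31 in seedling leaf. Both were above background in root too, at 10.94 and 7.85. For LOC606361 and LOC100037556 the root mean was instead below the seedling leaf mean. LOC606361 averaged 13.20 in coleoptile and 7.23 in seedling leaf, with 6.02 in root, and LOC100037556 averaged 12.02 in coleoptile and 6.59 in seedling leaf, with 5.16 in root. For LOC606361 1 of 2 probe sets was called and for LOC100037556 3 of 4. The seedling leaves were uneven for LOC100037556, at 4.56, 6.64 and 8.56, and its difference of 5.44 became 4.42 without leaf replicate 1 and 6.42 without leaf replicate 3, a check chosen after seeing the data. LOC606361 was highest in epiderm, at 14.20, and LOC100037556 in pericarp, at 13.68, groups of 2 arrays each. Among those lower in coleoptile, LOC542855 averaged 6.82 in coleoptile and 10.74 in seedling leaf, and LOC780636 (2 of 3 probe sets called) averaged 3.39 in coleoptile and 7.42 in seedling leaf.

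The 14 groups outside the comparison show how the called probe sets behave elsewhere, as a description without a test. Over the 6217 probe sets higher in coleoptile, the median signal was 8.06 in coleoptile, 7.95 in root and 8.15 in embryo, against 6.11 in seedling leaf. Leaves of the other stages had medians of 6.05 to 6.29, close to the seedling leaf. The stem was intermediate, at 7.03, 7.46, 7.57 and 6.59 at stages 21, 45, 59 and 75. Over the 3290 lower probe sets, the median was 6.28 in coleoptile and 5.44 in root, against 8.16 in seedling leaf and 8.21 to 8.38 in the other leaves. In both lists the median of coleoptile stood apart from those of all 5 leaf groups. Over the lower probe sets root lay farther from leaf than coleoptile did, and over the higher ones slightly nearer. The 3 seedling leaf arrays had medians of 5.75, 6.24 and 6.27 over the higher probe sets, with replicate 1 the lowest.

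**Figure D5:**
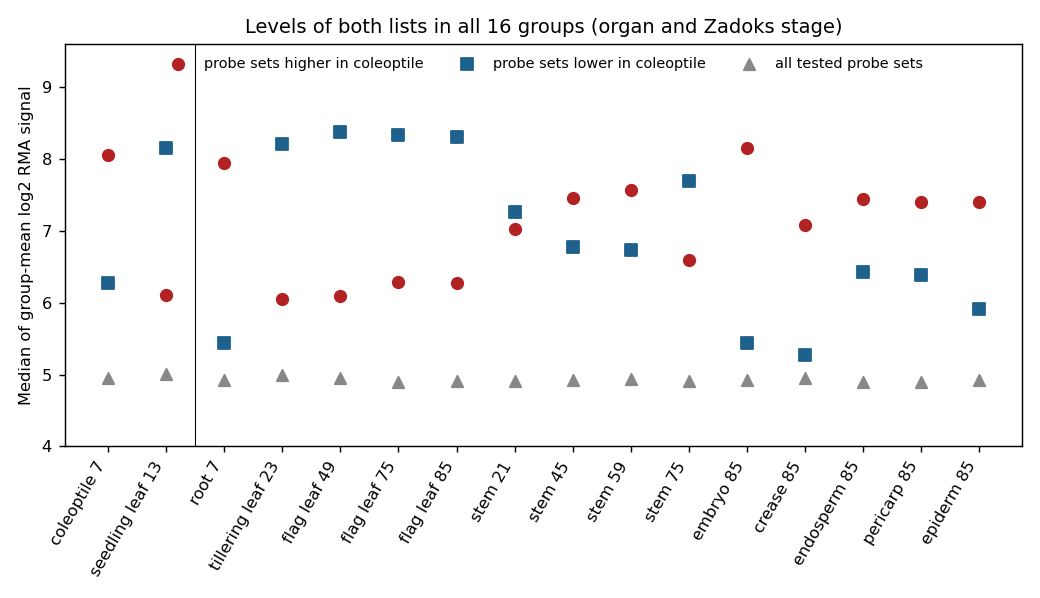
Median signal (log2) of the probe sets called higher and called lower in coleoptile, in each organ group. Root and embryo lie near coleoptile for the higher probe sets (7.95 and 8.15 against 8.06), and all leaf groups lie near the seedling leaf.

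Counted probe set by probe set, the tillering leaf lay on the coleoptile's side of the midpoint between coleoptile and seedling leaf for 6.71% of the higher and 8.54% of the lower probe sets, against 31.4% of all tested. Flag leaf at stage 49 lay there for 15.7% and 11.5%, against 35.7% of all tested. At stage 75 the flag leaf shares were 32.3% and 24.6%, against 51.8%, and at stage 85 they were 30.4% and 25.8%, against 50.3%. Root lay on the coleoptile's side for 80.2% of the higher and 83.5% of the lower ones, against 68.7% of all tested. Embryo lay there for 73.2% and 85.5%, against 65% of all tested. The probe sets were chosen for the gap that sets the midpoint, so nothing is tested by these shares. For 5825 of the higher (93.7%) and 3165 of the lower probe sets (96.2%), at least 1 of the 13 other AC Certa groups was on the coleoptile's side, as for 96.8% of all tested probe sets. For 392 higher (6.31%) and 125 lower ones (3.8%) none was, against 3.19% of all tested, so the lower ones are near that share. Of those 392, root was on the coleoptile's side for 226 and on the leaf's side for 166. Of those 125, it was on the coleoptile's side for 110 and on the leaf's side for 15. Of the 1948 such probe sets among all tested, it was on the coleoptile's side for 866 and on the leaf's side for 1082.

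Across all tested probe sets, the mean correlation of coleoptile with other groups was highest for the stem at stage 59, at 0.933, and at stage 21, at 0.931. It was 0.901 for seedling leaf, 0.876 for root, and lowest for crease, at 0.771. The groups differ in extraction as well as in organ.

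3 further comparisons share arrays with the main one and are set beside it without a test between them. Coleoptile differed from tillering leaf, a later leaf of AC Certa, at 9893 probe sets (16.2%), of which 6076 were higher (9.94%) and 3817 lower (6.25%). XTH differed by 3.48 there, with tillering leaves at 9.08, 6.34 and 9.13, and by 2.56 without tillering leaf replicate 2, also a check chosen after seeing the data. TUBA differed by 2.07, CAT1 by -2.08, GAPN by -1.70 and FBP by -1.31. Root differed from seedling leaf at 14639 probe sets (24%), with 9256 higher in root (15.1%) and 5383 lower (8.81%). Coleoptile and root, which share cultivar and extraction, differed at 8283 (13.6%), with 4036 higher in coleoptile (6.6%) and 4247 lower (6.95%). In that comparison petC, CAT1, FBP and GAPN were called higher in coleoptile. Their root means were below background, so only bounds can be given, with coleoptile at least 146-fold higher for petC, 39.6-fold for CAT1, 27.1-fold for FBP and 13.3-fold for GAPN. Cultivar and extraction were the same on both sides of these differences.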

How the data were processed

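The authors deposited 1 table of log2 signals for 61290 probe sets on 48 arrays, made with RMA per the submitters' processing notes. The log base was taken as 2, since it is not given in the sources used here, and neither are the software and background step. RMA brings arrays towards a common distribution, though the SD over tested probe sets was still 2.27 to 2.30 on the coleoptile arrays and 2.10 to 2.20 on the seedling leaf arrays. Values between 1.92 and 15 were used as deposited. Tests covered 61115 probe sets, without 111 controls and 64 reporters, and the 25 control probe sets of plant genes were added in a second fit.

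limma 3.58.1 in R 4.3.3 fitted a mean for each of 16 groups (32 residual degrees of freedom), and p-values were Benjamini-Hochberg adjusted over all probe sets. A call needed an adjusted p under 0.05 and a log2 difference of at least 1. Named probe sets were the 10 largest calls in each direction without overlap, called members of the gene lists (up to 4 each), and control probe sets of plant genes; LOC genes and ID clusters were added after their values were seen, and so were the uncalled and unlisted named genes. Members and lists were chosen with earlier results of these data known. Replicates are called biological in the labels without saying whether plants were pooled, so p-values measure the spread between these samples. Simulated data of this comparison covered 61115 probe sets, with 50 true differences at each of 1, 1.5, 2 and 3. Of those of 1, 56% were called, of those of 1.5 98% and of those of 2 100%, with 6 false calls. A true difference of 1 lies on the call minimum itself, so its share mainly reflects that threshold. Far fewer probe sets differed in the simulation than were called here, which changes the adjusted p. Those 6 calls therefore give no error rate for the real arrays, and the parts of cultivar and extraction were not tested. The 3 arrays a group limit the precision. Detection calls were not used here. No sequences were used here.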

Additional observations from a re-analysis of the deposited data

How the results depend on the processing

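The main comparison gave 9507 calls, and between 8521 (without seedling leaf replicate 1) and 10169 when each array was left out in turn. All 20 probe sets with the largest differences stayed called in each of these. They were chosen from the same data for differences far above the call minimum, so nothing is read from that. Centring on the hybridization spikes gave 10631 higher and 1745 lower calls, and 23263 calls for root minus seedling leaf, against 14639. Without a fold minimum, 22505 probe sets were called (11257 higher, 11248 lower), with 21492 for coleoptile minus tillering leaf, 28580 for root minus seedling leaf and 15666 for coleoptile minus root. At a log2 difference of at least 2, these counts were 2844 (1846 higher, 998 lower), 3556, 6454 and 3614, and 2 control probe sets were called. The last 2 settings change the threshold itself, and the cause of the first was not tested. Higher calls made up 82.5% of the calls for coleoptile minus tillering leaf after spike centring, against 61.4% as deposited, 86.9% against 63.2% for root minus seedling leaf, and 28.9% against 48.7% for coleoptile minus root. Of all counts under the alternatives, totals and single directions together, 205 lay within 1.5 times the main count and 33 did not, all 33 under these 3 settings. No named probe set changed sign past the threshold.

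With the replicate number as a block, in a fit of only the groups compared, 9209 probe sets were called, against 9054 in that fit without the block. The numbers did not pair the arrays: deviations of same-numbered arrays correlated at 0.093, 0.0238 and -0.0607. The call for ef1a was lost without coleoptile replicate 3 (0.93) and without seedling leaf replicate 2 (0.87). The second, dim FBP probe set, at -0.88 as deposited, passed the 2-fold minimum after quantile normalization (-1.07), without coleoptile replicate 2 (-1.05) and without seedling leaf replicate 2 (-1.17). Signals under background and the unnamed probe sets limit what can be said of most genes.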

Other observations

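Some probe sets lower in coleoptile were called although the seedling leaves differed widely among themselves. The examples were chosen after their values were seen, and not in order of size. For LOC543422, 1 of 3 probe sets was called. That probe set gave 2.97, 2.76 and 3.03 in coleoptile and 5.63, 12.32 and 5.45 in seedling leaf, a difference of -4.88 (limma adjusted p = 0.00603). The leaf value came mainly from replicate 2. In the tillering leaf replicate 2 was also the brightest, at 13.19, against 7.74 and 3.46 for replicates 1 and 3, and the flag leaf at stage 75 averaged 13.67. LOC543317 was uneven in the same leaf array, at 12.14 for replicate 2 against 4.85 and 7.55 for replicates 1 and 3 of the seedling leaf. The labels give nothing that sets the second leaf replicates apart from the others.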
